A study of Oryctolagus cuniculus with 20 samples.

Results

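The 4 arrays of rabbit condylar cartilage taken 8 weeks after internal derangement of the jaw joint were compared with the 4 arrays taken 4 weeks after it. These 8 arrays are members of a series of 20, and were chosen by the time point in their titles. The other 12 arrays came from joints at 1 week and 2 weeks of derangement and from controls, with 4 arrays in each group. The 16 operated rabbits carried the derangement in the left temporomandibular joint, while the 4 control rabbits were untreated, and no sham-operated group is named. All samples were labelled as TMJ condylar cartilage from male rabbits aged 6 months, controls and later time points alike, so the 8-week and 4-week groups carry the same labelled age. The labels give neither the surgical method nor the number of condyles behind an array, and p-values here measure only the spread between arrays.

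The temporomandibular joint carries the jaw on a condyle covered by fibrous tissue, with hyaline-like cartilage beneath it. Cells of that cartilage mature from proliferating chondrocytes, which lay down type II collagen and aggrecan, into hypertrophic chondrocytes, which make type X collagen and MMP13 before the matrix is resorbed and replaced by bone. Internal derangement is a displaced or altered articular disc, which changes the load on the condyle, and is known for cartilage thinning, matrix loss and remodelling of the bone below.

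Total RNA was labelled with Cy3 and hybridised to single-colour Agilent rabbit arrays with 43603 distinct gene probes. A level is the log2 of a probe's processed signal minus the 75th percentile of its array, so that 0 is the 75th percentile and a difference of 1 is a 2-fold difference. The comparison covered the 26257 probes that stood well above background in 3 or 4 arrays of either group. Probes well above background made up 60.3% to 61.8% of each 8-week array and 58.5% to 61.0% of each 4-week array, and the 75th percentile signal was 350.5 to 497.5 and 398.9 to 642.9. The number of arrays limits the precision. Correlations between arrays over the kept probes had medians of 0.974 within the 8-week group, 0.975 within the 4-week group and 0.971 between the groups. The 8-week and 4-week arrays share a scan day, but each group filled its own slide, so slide and group cannot be told apart. The cartilage label was set beside the levels of marker genes. COL2A1, the main collagen of hyaline cartilage, had mean levels of 8.54 at 8 weeks and 9.75 at 4 weeks, and COL10A1, the hypertrophic collagen, 5.38 and 7.59, both far above the 75th percentile. ACAN, which encodes aggrecan, was above background on all 8 arrays at the low levels of -2.29 and -1.69. The single probe for the cartilage transcription factor SOX9 did not pass the filter. COL1A2, a collagen gene of fibrous tissue, was as bright as COL2A1, with means over the 8 arrays of 9.58 and 9.15 on their brightest probes. These levels therefore show cartilage RNA but not the absence of other tissues.

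Most of the probes that differed were lower at 8 weeks than at 4 weeks, and most have no gene name on this array. At 8 weeks 125 probes were lower and 36 were higher (limma over all 20 arrays, Benjamini-Hochberg adjusted p under 0.05). These 161 probes are 0.613% of those tested, 0.476% lower and 0.137% higher. The lower probes differed by a median of -1.02 on the log2 scale, within a range of -2.76 to -0.39, and 66 of them by at least 2-fold. The higher probes differed by a median of 0.82, within a range of 0.39 to 2.27, and 10 of them by at least 2-fold. The 8-week and 4-week arrays did not overlap for 123 of the 125 lower probes and 34 of the 36 higher probes. Among all kept probes, the 8-week arrays lay wholly below the 4-week arrays for 6.87% and wholly above for 5.33%. The median over all kept probes was 0.01, which scaling each array to its 75th percentile largely fixes. An unadjusted p under 0.05 was reached by 3482 probes, 13.3% of those tested. The count of calls moved with the arrays used. It was 102, 98 and 97 without 8-week replicates 1, 2 and 3, and 96 and 94 without 4-week replicates 2 and 3. The higher calls numbered 14 to 17 when an 8-week array was left out, 60 without 4-week replicate 1, and 15, 10 and 19 without 4-week replicates 2, 3 and 4. Of the 161 probes, 75 were called whichever of the 8 arrays was left out, 67 of them lower and 8 higher.

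**Figure D1:**
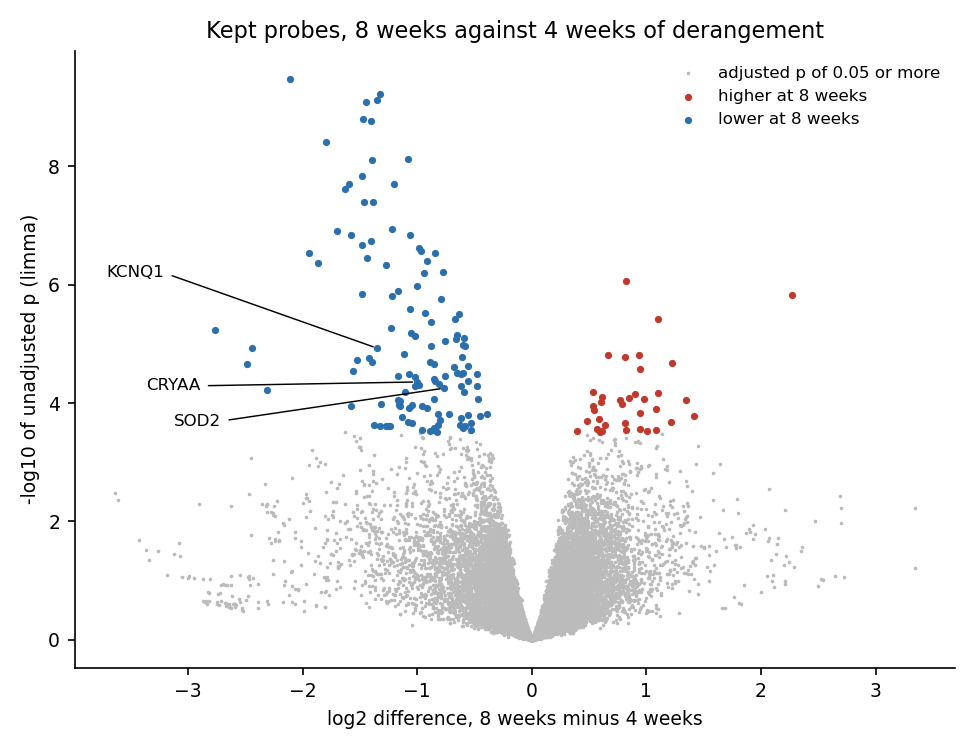
Each point is a kept probe, with the log2 difference between 8 and 4 weeks on the x axis and -log10 of the unadjusted limma p on the y axis. Blue points are the 125 probes lower at 8 weeks and red points the 36 higher ones, and the labelled points are the called probes of KCNQ1, CRYAA and SOD2.

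Gene names from the array or RefSeq could be given to 744 genes with a kept probe, each represented by its probe of highest mean level. Of these, 3 passed the test, all lower at 8 weeks, which is 0.403% of the named genes tested. KCNQ1, a potassium channel subunit, and CRYAA, a chaperone, are described here. No named gene passed in the other direction. Over both directions together, 110 of the 744 named genes (14.8%) had an unadjusted p under 0.05, against 13.3% of all kept probes. The 8-week arrays lay wholly above the 4-week arrays in 42 of the 744 genes (5.65%) and wholly below them in 51 (6.85%).

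KCNQ1, the pore-forming subunit of a voltage-gated potassium channel, had the lowest p of the named genes. Its levels were -1.66, -1.85, -1.75 and -1.45 at 8 weeks, against -0.26, -0.23, -0.49 and -0.32 at 4 weeks. The 8-week arrays all lay below the 4-week arrays, and KCNQ1 fell by 1.35 ± 0.22 (SE) on the log2 scale, a 2.55-fold difference (adjusted p = 0.00547). The 4-week mean of -0.33 was also above those of the controls (-1.51), 1 week (-2.10) and 2 weeks (-0.90). KCNQ1 remained called whichever array was left out, but not after normexp background correction (adjusted p = 0.157) or when only the 12 arrays of the shared scan day were fitted (adjusted p = 0.0812). Its single probe matches the Ensembl transcript ENSOCUT00000004491, and its 60 bases, shown because this probe alone stands for the gene, are as follows.
KCNQ1 probe: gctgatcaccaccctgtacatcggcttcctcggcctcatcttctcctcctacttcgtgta

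CRYAA encodes alpha-A crystallin, a small heat shock protein best known from the lens. Its levels were 0.01, -0.46, -0.04 and 0.30 at 8 weeks, against 0.74, 1.28, 1.00 and 0.81 at 4 weeks. The groups did not overlap, and CRYAA fell by 1.00 ± 0.19 (SE) on the log2 scale, a 2.01-fold difference (adjusted p = 0.0136). The call was lost without 8-week replicate 2 (adjusted p = 0.0604), 4-week replicate 2 (0.0631) or 4-week replicate 3 (0.0519), with log2 differences of -0.87, -0.90 and -0.99. It was also lost after normexp background correction (adjusted p = 0.172) and when only the 8 arrays compared (0.0517) or the 12 arrays of the shared scan day (0.0807) were fitted.

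SOD2 also had a called probe, although not its brightest. SOD2, the manganese superoxide dismutase of mitochondria, had 5 kept probes, all lower at 8 weeks by 0.42 to 0.76 on the log2 scale. The called probe had levels of -1.21, -0.69, -1.07 and -1.18 at 8 weeks, against -0.25, -0.21, -0.37 and -0.28 at 4 weeks, with no overlap. The brightest SOD2 probe differed by -0.53 ± 0.13 (SE) and did not pass (adjusted p = 0.0929).

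Apart from 4 named probes, the called probes carry no gene name in the sources used here. Ensembl transcripts without a name contributed 107 lower and 26 higher probes of 18390 kept, and expressed sequence tags and other identifiers 14 lower and 10 higher of 5699 kept. The 2 unnamed identifiers with the largest called differences in each direction are described here, with the probe sequences of the 2 that were lower, since no symbol identifies them.
ENSOCUT00000012263 probe: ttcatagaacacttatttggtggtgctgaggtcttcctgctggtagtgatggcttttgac
ENSOCUT00000010761 probe: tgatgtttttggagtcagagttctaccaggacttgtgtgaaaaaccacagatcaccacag

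ENSOCUT00000012263 had levels of -4.50, -5.78, -4.97 and -5.40 at 8 weeks, against -2.74, -1.89, -2.64 and -2.32 at 4 weeks. It was not well above background on any 8-week array and was on all 4 of the 4-week arrays, so it was at least 3.56-fold lower at 8 weeks (adjusted p = 0.00325). Such bounds set the brighter group's mean against the lowest signal well above background on each array of the dimmer group. Where the probe's own signal was higher, that signal was used. Probes given a bound passed the filter only through their brighter group, and their p-values rest partly on signals not above background. ENSOCUT00000012263 was also above background on all 4 arrays at 2 weeks, on 1 at 1 week and on no control array. ENSOCUT00000010761 had levels of -6.30, -5.83, -5.38 and -4.57 at 8 weeks, against -3.16, -3.37, -2.65 and -2.93 at 4 weeks. It was above background on no 8-week array and on all 4 of the 4-week arrays, and was at least 2.30-fold lower at 8 weeks (adjusted p = 0.00831). It was also above background on 3 control arrays, 2 at 1 week and 1 at 2 weeks. Neither transcript's groups overlapped.

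The tag EB376038 had levels of -2.41, -1.5, -2.16 and -2.72 at 8 weeks, against -4.71, -4.25, -4.47 and -4.46 at 4 weeks. It was above background on all 4 of the 8-week arrays, on 1 array at 1 week and on no array at 2 weeks, at 4 weeks or in the controls, and was at least 3.45-fold higher at 8 weeks than at 4 weeks (adjusted p = 0.00108). The tag EB375711 had levels of -2.60, -3.38, -4.12 and -2.91 at 8 weeks, against -4.27, -4.17, -4.96 and -5.28 at 4 weeks. It was above background on 3 of the 8-week arrays and on none at 4 weeks, and was at least 1.66-fold higher (adjusted p = 0.0346). It was also above background on 2 control arrays, and on no array at 1 week or 2 weeks. Both of its probes were called, with differences of 1.35 and 1.42.

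The array carries several probes for many transcripts, so some calls can be set beside other probes of the same transcript. The 161 probes belong to 117 transcripts, 88 lower and 29 higher, and no transcript had calls in both directions. Only 20 of the 117 had 2 or more called probes. Of the 68 with at least 2 kept probes, 55 had all their probes on the same side of 0, which is 80.9%, against 72.4% of all 5276 such transcripts. The 68 were chosen for holding a called probe, and their probes read the same arrays, so this share is not independent support. In 16 transcripts at least 2 probes were lower, making up 53 probes, and in 4 transcripts at least 2 were higher, making up 11. In 5 transcripts all 5 probes were called lower, with median differences from -1.58 to -0.61 on the log2 scale. When the probes of a transcript were averaged before the test, a step added after seeing the data, 53 transcripts were lower and 15 higher of 12935, which is 0.526%. The median GC content was 43.3% in the lower probes, 45.0% in the higher ones and 43.3% in all kept probes. The quartiles were 38.3% and 45.0% in the lower probes and 40.0% and 45.0% in all kept probes. In the higher probes they were 43.3% and 55.0%, so these reached further toward high GC. The median levels of the called probes were -1.72 in the lower and -1.65 in the higher ones, below the -0.61 of all kept probes.

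The groups outside the comparison show where 4 and 8 weeks stand. Over the 125 probes lower at 8 weeks, the median level was -1.32 in the controls, -2.20 at 1 week, -1.35 at 2 weeks, -1.16 at 4 weeks and -2.17 at 8 weeks. The level at 8 weeks thus lay beside that at 1 week, and the level at 4 weeks beside those at 2 weeks and in the controls. The 1-week mean was nearer to the 8-week than to the 4-week mean in 117 of the 125 probes, against 47.6% of all kept probes. The control mean was nearer to the 8-week mean in 21 of the 125 and the 2-week mean in 16, against 46.4% and 47.0% of all kept probes. By array, the median over the 125 probes ran between -2.26 and -1.97 at 8 weeks and between -2.28 and -2.04 at 1 week. It ran between -1.37 and -1.08 on the 12 arrays of the other 3 groups. The gap between the 8-week and 4-week arrays follows from choosing the probes by that difference. The scan days divide the groups in another way, with 1, 4 and 8 weeks on the same day and the controls and 2 weeks on another. The 36 probes higher at 8 weeks had median levels of -1.62 in the controls, -1.60 at 1 week, -1.80 at 2 weeks, -2.02 at 4 weeks and -1.24 at 8 weeks. Here the 4-week group was lowest and the 8-week group highest, an order that choosing probes by this difference favours. The 1-week mean was nearer to the 8-week mean in 10 of the 36. The part of slides in these levels was not tested.

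**Figure D2:**
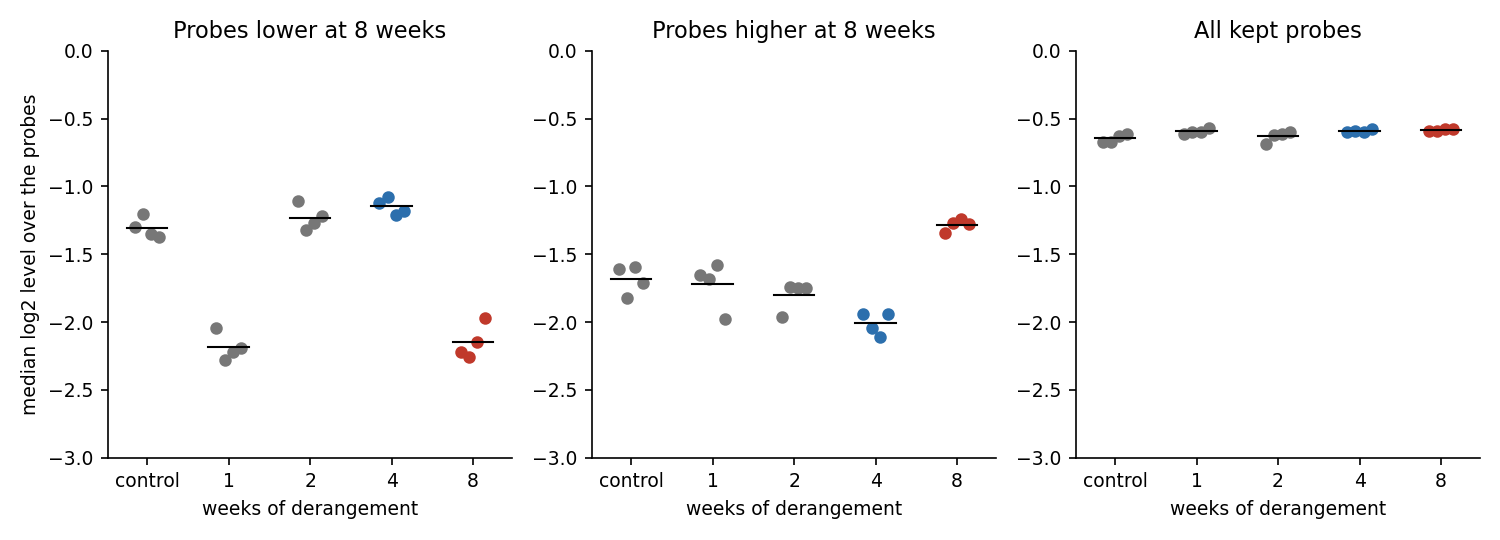
Each point is an array, placed by its group on the x axis and by the median log2 level over the probes lower at 8 weeks, the probes higher at 8 weeks or all kept probes on the y axis, with a line at the mean of the 4 arrays. The lower probes sit near -2.2 at 1 and 8 weeks and near -1.3 to -1.1 elsewhere, while all kept probes sit near -0.6 throughout.

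Beyond the genes that passed, the named genes with the lowest p in each direction give values that did not pass. On the higher side, NOS3, the nitric oxide synthase of endothelium, had levels of 0.32, -0.18, -0.27 and 0.32 at 8 weeks, against -0.93, -0.80, -1.26 and -0.55 at 4 weeks. The NOS3 arrays did not overlap, and the difference was 0.93 ± 0.21 (SE, adjusted p = 0.0622). CLU, a secreted chaperone, had levels of 3.81, 3.95, 4.22 and 4.04 at 8 weeks, against 3.18, 3.73, 2.96 and 3.05 at 4 weeks, again without overlap (difference 0.78, adjusted p = 0.0872). ATP1B2, a beta subunit of the sodium pump, was above background on all 4 of the 8-week arrays and on none at 4 weeks, which gives at least 1.70-fold (adjusted p = 0.0731). ITGB8, an integrin that activates latent TGF-beta, averaged -1.22 ± 0.50 at 8 weeks and -2.79 ± 0.85 at 4 weeks (SD, n = 4 each), and the groups overlapped through 4-week replicate 1 at -1.60. The actin-binding protein DBN1 had the tightest groups, with 0.40 to 0.50 at 8 weeks and 0.00 to 0.15 at 4 weeks. The basement membrane chain LAMB2 averaged 4.76 and 4.20, the lysosomal protease CTSF 1.71 and 1.13, and the calcium-dependent protease CAPN1 -1.28 and -1.75, at 8 and 4 weeks, each without overlap. The differences of GJC1, a connexin, CACNB3, a calcium channel subunit, USF1, a transcription factor, and KCNJ8, a potassium channel subunit, ran from 0.41 to 0.69, with adjusted p from 0.187 to 0.226.

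On the lower side, APOD, a lipid-binding lipocalin, had levels of 1.94, 0.86, 2.36 and 3.74 at 8 weeks, against 4.02, 5.80, 4.54 and 4.32 at 4 weeks. The groups did not overlap, and the difference was -2.45 ± 0.61 (SE, adjusted p = 0.0929). LGALS4, a sugar-binding galectin, averaged -2.10 ± 0.72 at 8 weeks and -0.59 ± 0.41 at 4 weeks (SD, n = 4 each), without overlap. CYP2E1, a cytochrome P450 that oxidises small solvents, had levels of -1.86, -1.66, -2.32 and -1.33 at 8 weeks, against -0.56, -0.72, 0.25 and 1.07 at 4 weeks. All 7 of its probes were lower, by 1.12 to 1.92, and it did not pass (adjusted p = 0.104). ANXA11, a calcium-dependent membrane-binding protein, averaged 4.19 and 4.95 at 8 and 4 weeks, with all 6 probes lower by 0.64 to 0.76. The sodium channel SCN9A, the receptor tyrosine kinase KIT and the muscle thin-filament gene TPM2 differed by -0.92, -0.88 and -1.09, with adjusted p from 0.106 to 0.160. After normexp background correction these 3 differences were -0.29, -0.28 and -0.41, and those of ATP1B2 and ITGB8, 1.45 and 1.58 before it, were 0.55 and 0.98. FRZB also belongs here and is described with the cartilage genes.

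**Figure D3:**
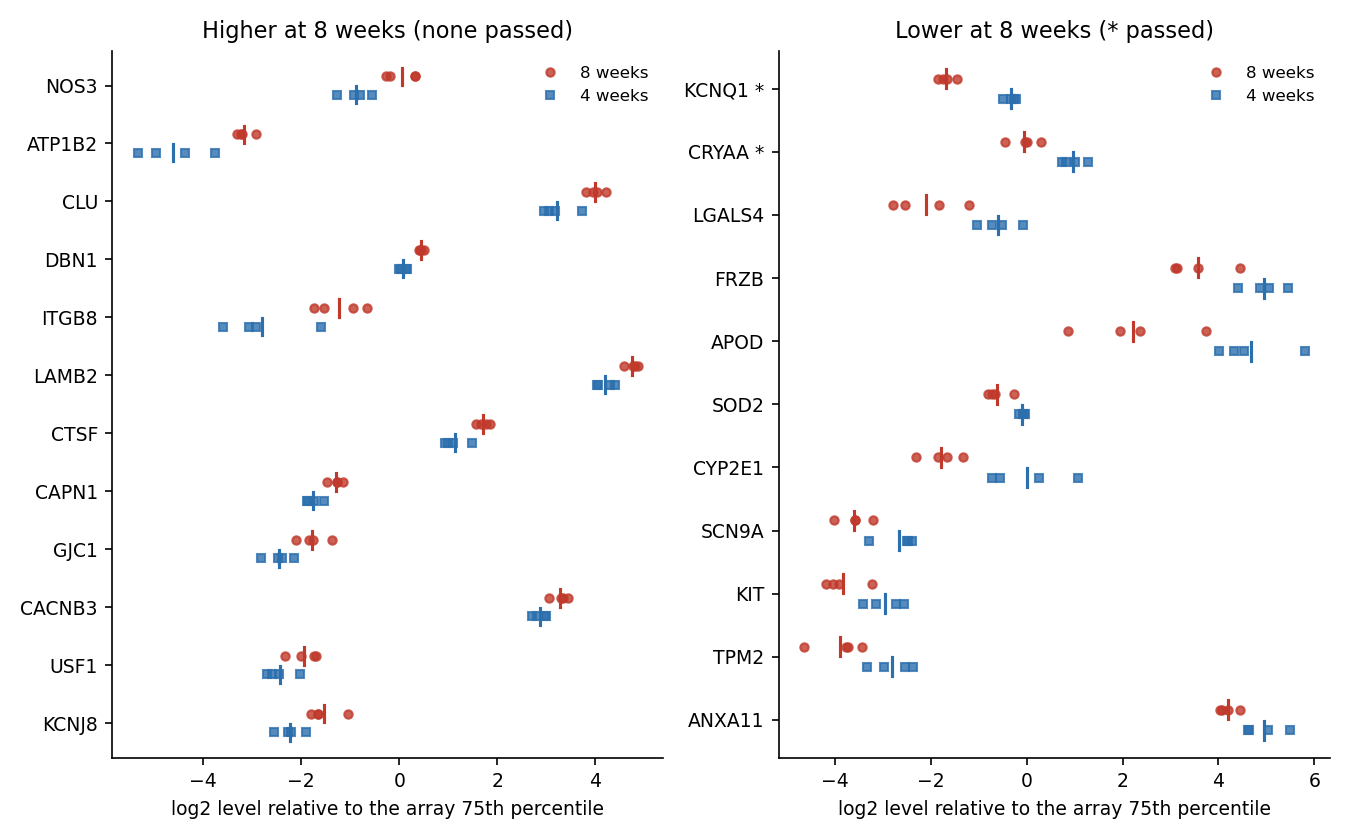
Log2 levels relative to the array 75th percentile are on the x axis, with the 12 higher and 11 of the 12 lower named genes of lowest p down the page, 8-week arrays as red circles above 4-week arrays as blue squares and group means as short lines. Stars mark KCNQ1 and CRYAA, which passed, and the other 21 are values that did not pass.

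The genes of hyaline cartilage had lower means at 8 weeks than at 4 weeks, but none passed the test. All 3 measured genes of the list of 24 were lower, with a median difference of -1.21, against 0.02 over all named genes. CNMD, which encodes chondromodulin, an anti-angiogenic protein of cartilage, had levels of 2.20, 0.31, 1.5 and 3.57 at 8 weeks, against 3.96, 6.27, 3.84 and 4.04 at 4 weeks. The arrays did not overlap, and the difference was -2.63 ± 0.83 (SE, adjusted p = 0.203). COL2A1 had levels of 9.01, 7.19, 8.24 and 9.74 at 8 weeks, against 9.50, 10.52, 9.36 and 9.62 at 4 weeks. These groups overlapped, with 8-week replicate 4 above 3 of the 4-week arrays, although all 8 of the COL2A1 probes were lower, by 0.77 to 1.71 (difference -1.21 ± 0.53 SE, adjusted p = 0.341). ACAN differed by -0.60 ± 0.38 (SE) with overlapping groups (adjusted p = 0.517).

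The list of hypertrophy and bone was split, with 5 measured genes lower, 3 higher, a median of -0.23 and no call among 8. COL10A1 had levels of 6.53, 3.45, 3.89 and 7.66 at 8 weeks, against 6.90, 8.91, 7.37 and 7.20 at 4 weeks. The 8-week arrays formed a high pair, replicates 1 and 4, and a low pair, replicates 2 and 3, and the difference was -2.21 ± 0.87 (SE, adjusted p = 0.295). All 6 probes of COL10A1 were lower, by 1.87 to 2.30. IHH, the signal by which prehypertrophic cells pace maturation, averaged -1.66 ± 0.54 at 8 weeks and -0.60 ± 0.81 at 4 weeks (SD, n = 4 each), with overlap. PTHLH, the peptide that holds cells back from hypertrophy, lay on the other side, at -1.83 ± 0.31 and -2.58 ± 0.40 (SD, n = 4 each, adjusted p = 0.317). RUNX2, the transcription factor of hypertrophy and bone, averaged 0.01 and -0.14.

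Of the WNT and hedgehog genes, 7 of 8 measured were lower at 8 weeks, with a median of -0.68 and no call. FRZB, a secreted WNT antagonist of cartilage, had levels of 3.58, 3.10, 3.14 and 4.45 at 8 weeks, against 4.40, 5.46, 5.06 and 4.87 at 4 weeks. Only 8-week replicate 4 reached the 4-week range, all 7 FRZB probes were lower by 1.36 to 1.63, and the difference was -1.38 ± 0.34 (SE, adjusted p = 0.0872). The ligand WNT11 differed by -0.97 and the antagonist DKK1 by -0.62, each with overlap. S100B, a calcium-binding protein made by chondrocytes as well as Schwann cells, had levels of 0.11, -1.15, -0.59 and 0.35 at 8 weeks, against 1.00, 2.42, 0.63 and 0.62 at 4 weeks, without overlap (difference -1.49, adjusted p = 0.263).

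The other groups show where these genes stood before and between the 2 times. CNMD averaged 2.14 in the controls, 4.44 at 1 week, 1.79 at 2 weeks, 4.53 at 4 weeks and 1.90 at 8 weeks. FRZB averaged 3.63, 4.93, 3.25, 4.95 and 3.57 in the same order, and COL10A1 5.80, 8.06, 5.72, 7.59 and 5.38. The 8-week means thus lay near the control and 2-week means, and the 4-week means near the 1-week means, unlike the 125 probes called lower. The SD within a group reached 1.66 for CNMD and 2.04 for COL10A1.

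Neutrophil granule genes varied widely between the arrays of both groups. All 9 measured genes of the list of 23 were lower at 8 weeks, with a median of -2.58 and no call. S100A8, a calgranulin, had levels of -3.01, 4.49, 3.82 and 0.12 at 8 weeks, against 3.24, 1.18, 5.95 and 5.73 at 4 weeks. CAMP, a cathelicidin, had -5.20, 3.37, 2.88 and -1.34 at 8 weeks, against 2.07, -0.28, 4.76 and 4.41 at 4 weeks, and the defensin MCP-2 and the calgranulin S100A12 were likewise lowest on 8-week replicate 1 and 4-week replicate 2. The mean level of the list was -2.33, 4.04, 3.23 and 0.65 at 8 weeks and 3.13, 0.59, 5.12 and 5.02 at 4 weeks, so the groups overlapped (exact permutation test, two-sided, p = 0.314). The arrays with the lowest neutrophil levels, 8-week replicates 1 and 4 and 4-week replicate 2, had the highest COL2A1, CNMD and COL10A1 levels of their groups. The part of cell composition in the cartilage differences was not tested, and in whole tissue fewer cells of a type and less RNA per cell cannot be told apart.

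**Figure D4:**
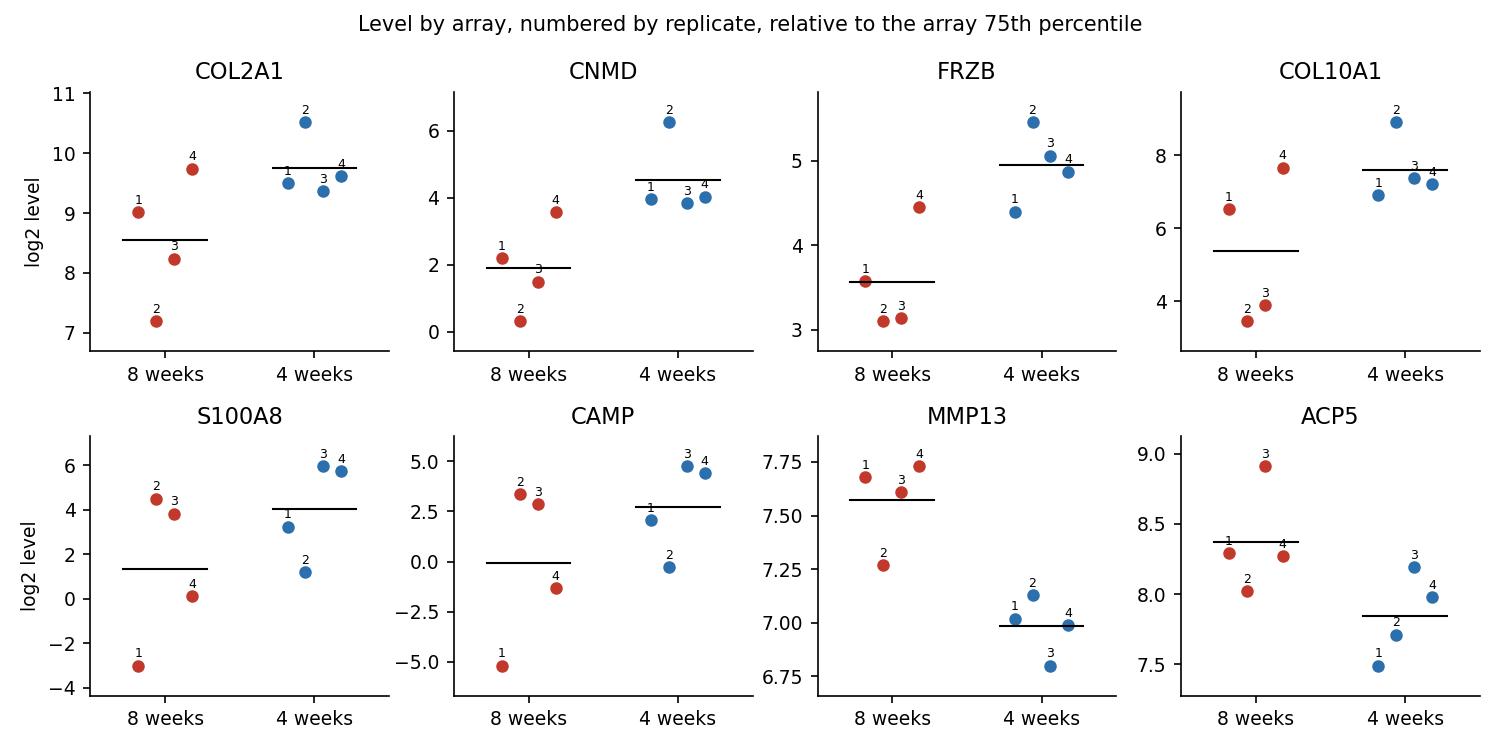
Log2 levels relative to the array 75th percentile on the y axis, with 8-week arrays left of 4-week arrays, the replicate number above each point and a line at the group mean. COL2A1, CNMD, FRZB and COL10A1 have lower means at 8 weeks with wide spread, S100A8 and CAMP overlap between the groups and are lowest on 8-week replicate 1 and 4-week replicate 2, and MMP13 and ACP5 have higher means at 8 weeks.

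Among matrix proteases and their inhibitors 14 of 20 measured genes had higher means at 8 weeks, with a median of 0.21 and no call, while 51.7% of all named genes had higher means. MMP13, the collagenase of hypertrophic cartilage, had levels of 7.68, 7.27, 7.61 and 7.73 at 8 weeks, against 7.02, 7.13, 6.80 and 6.99 at 4 weeks. The MMP13 groups did not overlap, all 3 probes were higher by 0.50 to 0.77, and the difference was 0.59 ± 0.26 (SE, adjusted p = 0.341). Stromelysin, MMP3, averaged -0.70 ± 0.20 and -1.17 ± 0.42, and the aggrecanase ADAMTS5 -0.41 ± 0.35 and -0.88 ± 0.34 at 8 and 4 weeks (SD, n = 4 each), with overlap. The lysosomal protease CTSD differed by 0.42, while CTSE, an aspartic protease of other tissues, differed by -0.86. TIMP1, an inhibitor of matrix metalloproteinases, averaged 6.71 and 6.39 at 8 and 4 weeks (adjusted p = 0.587).

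The osteoclast genes, which mark the cells that resorb bone and calcified cartilage, were all higher at 8 weeks, 5 of 5 measured, with a median of 0.25 and no call. ACP5, the tartrate-resistant phosphatase, had levels of 8.29, 8.02, 8.91 and 8.27 at 8 weeks, against 7.49, 7.71, 8.19 and 7.98 at 4 weeks, with overlap (difference 0.53 ± 0.24 SE, adjusted p = 0.356). MMP9 averaged 9.10 and 8.84, the collagen-degrading cathepsin CTSK 7.07 and 6.82, and the integrin chain ITGB3 6.11 and 5.86. The mean level of the list lay between 6.91 and 7.41 at 8 weeks and between 6.80 and 6.85 at 4 weeks, without overlap. Its exact two-sided permutation p of 0.0286 is the smallest that 4 against 4 arrays can give, and was 0.157 after adjustment over the 11 cell type lists.

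Growth factors and cytokines gave no call. In the list of TGF-beta, BMP and growth factors 7 of 10 measured genes were higher, with a median of 0.13. TGFB1 had levels of 0.80, 0.85, 0.78 and 0.96 at 8 weeks, against 0.36, 0.50, 0.42 and 0.61 at 4 weeks, without overlap (difference 0.38 ± 0.20 SE, adjusted p = 0.418). CCN2, a matricellular growth factor of cartilage, had levels of -1.12, -1.43, -1.53 and -0.31 at 8 weeks, against -0.53, 1.21, -0.51 and -0.18 at 4 weeks, with overlap (difference -1.09). PDGFB was above background on 3 of the 8-week arrays and on none at 4 weeks, at least 1.11-fold higher (adjusted p = 0.237), and TGFB2 differed by -0.43.

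Of 20 measured genes of inflammation, 12 were higher and 8 lower, with a median of 0.08. PTGS2, the inducible prostaglandin synthase, averaged -1.44 ± 0.42 and -0.67 ± 0.64, and IL1B -2.77 ± 1.02 and -1.73 ± 1.23 at 8 and 4 weeks (SD, n = 4 each), both with overlap. IL1B was lowest on 8-week replicate 1 and 4-week replicate 2, where the neutrophil genes were also lowest. TNF differed by -0.46 on its brightest probe, but only 1 of its 4 kept probes had that sign. The chemokines CXCL8, at -0.89 and -0.88, and CCL2, at -1.31 and -1.63, and the cytokine IL15, at -0.95 and -1.37, overlapped between the groups.

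Fibrous matrix genes were split, with 6 of 11 higher, a median of 0.03 and no call. Decorin (DCN) averaged 5.70 ± 0.71 and 5.59 ± 0.49, lumican (LUM) 5.85 ± 0.49 and 5.89 ± 0.34, fibronectin (FN1) 6.13 ± 0.35 and 5.89 ± 0.41, and COL3A1 8.23 ± 0.22 and 8.40 ± 0.14 at 8 and 4 weeks (SD, n = 4 each). Only 5 of the 14 FN1 probes had the sign of the brightest, and the second LUM probe differed by 0.07. The standard error of these 4 differences was 0.17 to 0.43. A difference had to be several times its standard error to pass, so shifts well above these values could also be missed with 4 arrays a group.

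Of the hypoxia and glycolysis genes, 5 of 7 measured were lower, with a median of -0.19. The glucose transporter SLC2A1 had levels of 0.54, -0.01, 0.13 and 1.14 at 8 weeks, against 1.43, 2.69, 1.51 and 1.66 at 4 weeks. Its arrays did not overlap and all 5 probes were lower by 1.37 to 1.47, without passing the test (adjusted p = 0.199). Its highest value in each group was on 8-week replicate 4 and 4-week replicate 2, the arrays with the highest COL2A1. The transporter SLC2A3 differed by -1.74 and LDHA by -0.62, while HIF1A, the oxygen-sensing transcription factor, averaged 1.13 and 0.84.

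The other process lists held few differences. Among ion channels 15 of 29 measured genes were higher, with a median of 0.01, and KCNQ1 was the only call. The heart and neuron channels KCNA4 and HCN4 differed by -1.53 and -0.86, each above background on 2 of the 8-week arrays and on all 4 at 4 weeks. In the cell cycle 6 of 7 were higher, with a median of 0.10, and CCNA2, a cyclin of DNA replication, averaged 1.31 and 0.80 and the cell cycle inhibitor CDKN1B 0.18 and -0.22 at 8 and 4 weeks, both without overlap (adjusted p = 0.295 and 0.299). The medians were -0.29 over 4 cell death genes, 0.18 over 3 immediate early genes, -0.06 over 4 interferon genes, 0.07 over 3 chaperones of the endoplasmic reticulum, -0.01 over 5 connexins, -0.05 over 12 lipid genes, 0.01 over 9 solute carriers and 0.07 over 17 xenobiotic enzymes, with no call in any of them. APOE, a lipid carrier, differed by -1.36 without overlap, 4-week replicate 2 standing highest at 1.12. EIF2AK2, the RNA-activated kinase, differed by -1.39 on its brightest probe without overlap, but its other 2 probes had the other sign. No gene of the list of oxidative phosphorylation was measured.

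Markers of the remaining cell types gave no call. Smooth muscle and pericyte genes had a median of 0.69 over 4 genes. ACTA2, smooth muscle actin, had levels of 1.07, 0.20, 0.54 and 0.07 at 8 weeks, against 0.52, -1.68, -0.74 and -1.60 at 4 weeks, and TAGLN averaged -0.38 ± 0.71 and -1.72 ± 0.94 (SD, n = 4 each), both with overlap. Endothelial genes had a median of 0.22 over 6 genes, led by NOS3, with a list level of -1.23 to -0.86 at 8 weeks and -1.81 to -0.94 at 4 weeks. All 3 measured macrophage genes, CD14, TLR4 and MSR1, were higher, with a median of 0.47, and their list level was -1.11 to -0.30 at 8 weeks and -2.17 to -0.33 at 4 weeks. The T and B lymphocyte list of 4 genes had a level of -4.06 to -3.60 at 8 weeks and -3.45 to -2.72 at 4 weeks, without overlap (exact permutation p = 0.0286, 0.157 after adjustment). Its lead gene IL2RA, a receptor of activated T cells, was above background on 1 of the 8-week arrays and on all 4 at 4 weeks (difference -1.63, adjusted p = 0.199). None of the 140 kept probes of rearranged immunoglobulins was called, and their median difference was -0.07. The beta-globin gene HBB2 stood at 8.18 ± 0.53 and 8.40 ± 0.14 (SD, n = 4 each) at 8 and 4 weeks, and the erythroid list had a median of -0.21 over 3 genes. Skeletal muscle genes had a median of 0.08 over 11 genes and list levels of -2.10 to -1.99 at 8 weeks and -2.11 to -1.55 at 4 weeks. Epithelial, synovial and nerve genes had medians of 0.16, 0.20 and -1.27 over 3 genes each. After adjustment over the 11 cell type lists, no list level passed (exact permutation tests, adjusted p from 0.157 to 0.657). With 0.0286 as the smallest possible p, no list could pass unless most of the 11 were fully separated. These tests therefore could not detect a change confined to a few cell types.

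**Figure D5:**
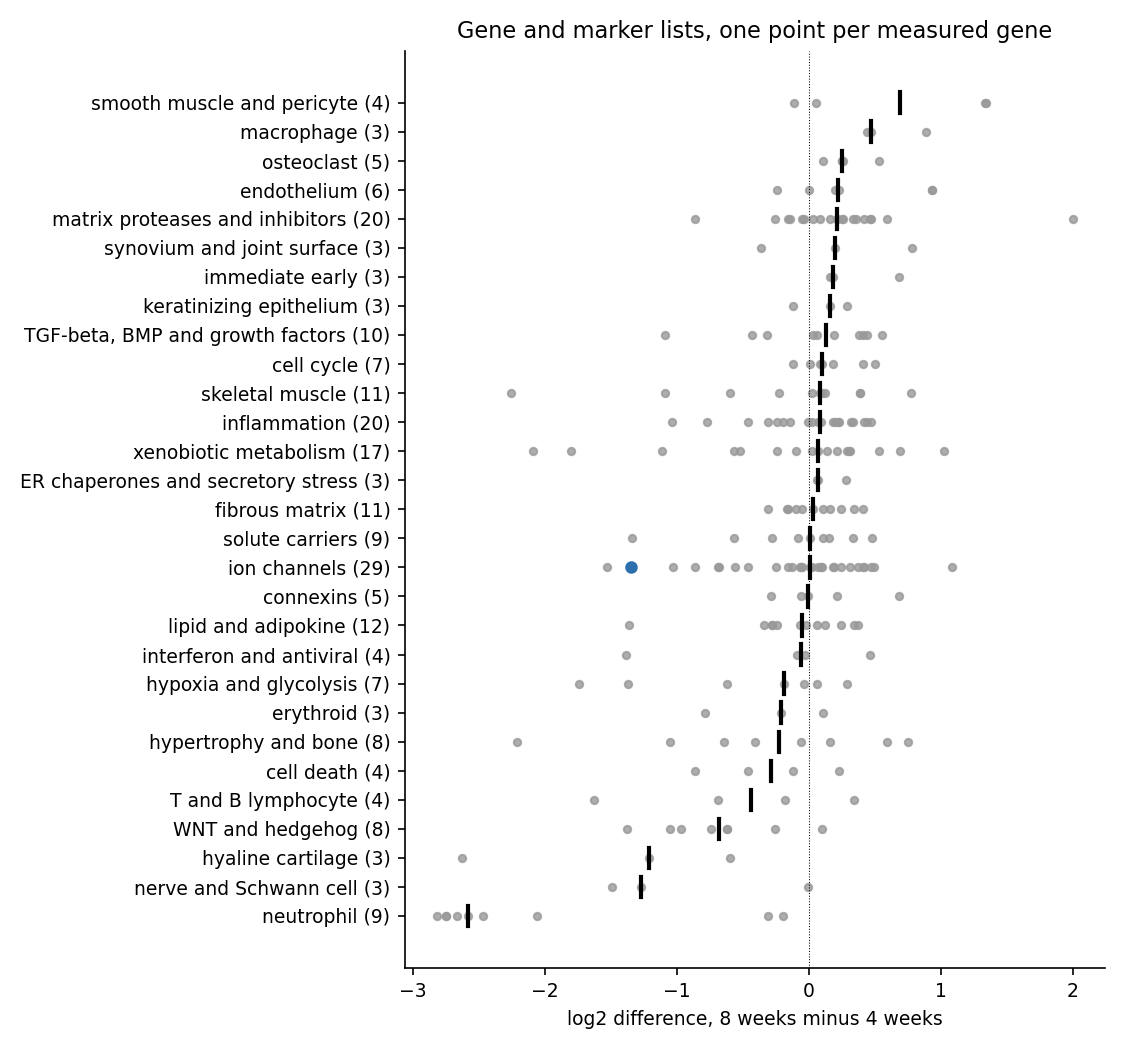
Each grey point is a measured gene, with its log2 difference between 8 and 4 weeks on the x axis, and each row is a list with its number of measured genes and its median as a black bar. KCNQ1, in blue among the ion channels, is the only list member that passed the test, and the medians run from -2.58 for neutrophil genes to 0.69 for smooth muscle genes.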

How the data were processed

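Per the file headers, the authors' deposited scanner files hold single-colour intensity values made with Agilent Feature Extraction 10.7.1.1, and the processed signal is already background-subtracted. The deposited series table holds intensity values of the same arrays. By the median absolute log2 gap over probes, which was 0 to 6 decimals for each best match, 16 columns matched their own array and the 4 columns for 8 weeks the arrays of that group in another order, so replicate numbers at 8 weeks are uncertain, while the groups are not affected. No spot was saturated.

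Outlier spots and control spots were left out, spots of a probe averaged, and log2 processed signal minus each array's 75th percentile was fitted with limma 3.58.1 (R 4.3.3) as 5 group means over 20 arrays, with 8 weeks minus 4 weeks as the contrast. Kept probes were well above background on 3 or more of 4 arrays of either group, and p-values were adjusted by the Benjamini-Hochberg method over all 26257. The fit was tested on simulated data. Names came from array annotations and RefSeq for 3314 of 43603 probes (7.6%). A gene is its kept probe of highest mean over the 8 arrays. The files give no genome build, so no coordinates are printed.

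The arrays and lists were chosen with earlier results of these data known. Genes named are those called, then the lowest p to 12 in each direction, up to 4 of lowest p per list, a panel of cartilage and joint genes (VEGFA and PRG4 matched no named probe, and SOX9 and MMP12 none that passed the filter), and 2 unnamed identifiers in each direction; 2 genes that fall under this rule are not reported here. Cell type list levels were tested by exact permutation. Alternatives covered background correction, scaling, filters, arrays fitted, array weights, a replicate block, the series table and leaving out each array.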

Additional observations from a re-analysis of the deposited data

Results flagged for a closer look

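Single arrays stood apart from the other 3 of their group in 17 of 308 groups of 4 looked at, or 5.52%, against about 5% by chance, and 7 of the 17 were 4-week replicate 2. On that array CNMD was high at 6.27 (others 3.84 to 4.04), APOE at 1.12 (others -0.85 to -0.70), HAS2 at -2.42 (others -3.23 to -3.15) and the hyaline cartilage list at 5.24 (others 3.73 to 3.95). It was low in MYC at 1.05 (others 1.5 to 1.55), SCN9A at -3.30 (others -2.50 to -2.40) and the cell death list at -2.07 (others -1.39 to -1.32). Among the other 4-week arrays, the inflammation list was high at -1.09 on replicate 1, and CTLA4 at -1.54 on replicate 4.

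At 8 weeks, replicate 1 was low in LUM at 5.12 and SELE at -4.65. Replicate 2 was low in HSP90B1 at 5.47 and KDR at -3.61, and replicate 3 in the WNT and hedgehog list at -0.65. Replicate 4 was high in CALD1 at 5.52 and low in MMP3 at -1.0 and LEP at -2.50. All values are log2 levels relative to the array 75th percentile. Neither KCNQ1 nor CRYAA was among them.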

How the results depend on the processing

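No called probe took the other sign in any setting that kept it, and 8 of the 161 were left out by the stricter filter. The probes were chosen for their difference in these same arrays, so a constant sign was largely fixed in advance. The number of calls moved with the setting. Normexp background correction here took each spot's mean signal and its background in place of the processed signal, and added a constant of 50. It left 15 probes called, 0 higher and 15 lower, and 0 named genes. It left 1200 probes at an unadjusted p under 0.05. It also moved the level difference of the skeletal muscle list to -0.03 and of the T and B lymphocyte list to -0.14, and shrank the differences of ATP1B2, SCN9A, KIT and TPM2 to 0.55, -0.29, -0.28 and -0.41. Fitting the 12 arrays of the shared scan day gave 61 calls (7 higher, 54 lower, 1 named gene), the 8 arrays alone 270 (57, 213 and 6), the 16 arrays without 1 week 389 (86, 303 and 10) and array weights 2059 (1011, 1048 and 71). Shared calls were 60, 109, 161 and 161 of the 161. Median centring called 19 probes higher and no filter 18. Averaging probes by transcript, added after seeing the data, gave 68 (15 higher, 53 lower) with fewer features tested. The causes of the shifts between settings were not tested.

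Leaving out an array gave 94 to 175 calls, 10 to 60 higher, 81 to 122 lower and 1 to 6 named genes. The replicate block gave 127 calls, 22 of them higher, and 2 named genes. No label pairs arrays that share a number, and the deviations of such arrays correlated between -0.351 and 0.111. Because the replicate numbers at 8 weeks are uncertain, these correlations cannot decide whether samples were paired. Array weights called 2059 of 26257 probes and 71 of the 744 named genes. COL2A1, CNMD, COL10A1, FRZB and MMP13 were among those 71, with adjusted p from 0.00175 to 0.0474, and genes of other lists were called there too. Precision is limited by 4 arrays a group, and by dim probes such as KIT, above background on 1 of the 8-week and 4 of the 4-week arrays.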
